A study of Arabidopsis thaliana with 4 samples.

Results

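The chloroplast genome of Arabidopsis encodes part of the photosynthetic apparatus, and 44 of its photosynthesis genes were followed in seedlings of a control line and of a wbc19 mutant line grown with or without the antibiotic kanamycin. The genes were taken from the table of gene abundances by locus identifier and symbol: a locus of the plastid chromosome whose symbol names a subunit of a photosystem (psa, psb), the cytochrome b6f complex (pet), the ATP synthase (atp), the NDH complex (ndh) or Rubisco (rbcL), or one of the assembly factors ycf3 and ycf4. They were 44 of the 133 plastid rows and of the 33624 rows of the whole table. By complex they were 14 genes of photosystem II, 12 of the NDH complex, 6 of the ATP synthase, 5 of photosystem I, 4 of the cytochrome b6f complex, rbcL and the 2 assembly factors. The gene listed under the old symbol PSBG was counted as ndhK. Both copies of ndhB in the inverted repeat are included, and petN, psbZ and petL, listed under older symbols that the rule did not take, are not.

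The control line was SALK_064816C, which carries a T-DNA upstream of TRANSPARENT TESTA 4 that disrupts no gene, and the mutant line was SALK_107731, a T-DNA knockout of the ABC transporter gene WBC19. Both lines carry the kanamycin resistance gene NPTII of the T-DNA. Homozygous seedlings were harvested whole after 5 days on MS medium with 0 or 50 mg/l kanamycin, and 1 library of poly(A) RNA was made for each of the 4 conditions. Libraries are named here by their labels, control, control + kan, mutant and mutant + kan, and values are given in that order. For WBC19 (AT3G55130) itself the libraries labelled control and control + kan gave 0 FPKM, the one labelled mutant 3.00 and the one labelled mutant + kan 2.30. Both values above 0 are under the limit of 5 FPKM used below, and the reads behind them were not estimated. This order of the libraries is not that of the knockout label, and what lies behind it was not tested. Each direction below holds for the libraries as labelled.

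Chloroplast genes are mostly transcribed in groups, as long RNAs that are cut and spliced into many overlapping forms. A bacterial-type polymerase with plastid-encoded core subunits and nuclear sigma factors transcribes most photosynthesis genes, and phage-type polymerases from the nucleus serve others. Poly(A) tails are rare on chloroplast RNA and mark molecules on their way to breakdown, so a poly(A) library samples it indirectly. Kanamycin binds the bacterial-type ribosome, of which the chloroplast has its own. Abundances are in FPKM, which counts fragments after correction for gene length and library size.

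Pieces of the chloroplast genome are shown for the genes on which the results turn, read from RefSeq (build TAIR10.1, chromosome Pt). The first is the overlap of the psbD and psbC coding sequences, 53 bases that belong to both genes, in which capitals mark the start codon of psbC and the stop codon of psbD. The second is the overlap of atpB with atpE, and its capitals are the 4 shared bases, the start codon of atpE and the stop codon of atpB in one. The third lies upstream of psbA, the most abundant of the 44 genes, and its capitals are a pair of boxes in the arrangement that bacterial-type polymerases recognise.
psbD and psbC overlap, Pt:33720-33772, plus strand: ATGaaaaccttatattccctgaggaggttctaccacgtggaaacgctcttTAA
atpB and atpE overlap, Pt:52645-52678, minus strand: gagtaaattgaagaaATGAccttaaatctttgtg
psbA boxes, Pt:1525-1569, minus strand: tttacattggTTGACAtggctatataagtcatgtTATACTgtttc

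The psbA boxes span 115 to 86 bases before the start codon, with 18 bases between them. The letters TTGACA followed after 16 to 19 bases by TANNNT were searched on both strands of the 250 bases before each coding start. They were found in 3 of 85 windows (3.53%), those of psbA and of both annotated copies of ycf1, and TTGACA alone was found in 14 (16.5%). A match is a description of these letters only.

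The number of reads per gene was not used as such here but estimated from the steps between low FPKM values of nuclear genes. It could be given for the 29 genes with a coding length of at least 300 bases. Those genes together took about 8446, 19795, 16125 and 8635 reads in the 4 libraries. For the 15 shorter genes, of which the shortest has 102 coding bases, FPKM is unstable and read numbers are not given. Intervals below are 95% intervals from these estimated reads. They cover counting error alone, as the libraries were amplified by PCR without molecular identifiers. Folds are of FPKM as listed, and ratios between genes of a library are free of how libraries are scaled. Scaling the libraries by their upper quartile turned 41 of 174 differences of single genes, all of them under 2-fold. It took 14 under 2-fold and brought 23 past it. For psaA, psaB, psbC and atpE it turned the direction in each of the 4 comparisons, and some other cases are given with the genes. No difference between libraries has a replicate check, and in RNA of whole seedlings fewer green cells and less chloroplast RNA per cell cannot be told apart.

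The summed FPKM of the 44 genes was 14351 in the library labelled control, 18416 in control + kan, 14762 in mutant and, without ndhH, 15721 in mutant + kan. The chloroplast 16S and 23S rRNAs were listed at 26548 to 32902 FPKM in every library. Genes with any signal numbered from 8957 in the library labelled mutant to 15055 in that labelled control, of 33458 with a locus identifier. Leaf markers marked the tissue: in FPKM as listed all 6 differed by less than 2-fold in each of the 4 comparisons. They summed to 12544 to 18089 FPKM, and other scalings were not applied to them. The 12 root markers summed to 981, 669, 1325 and 569 FPKM, nearly all of it from the glucosidase gene PYK10, and 3 to 8 of them were listed at 0 in each library. The 5 seed storage and oil body markers summed to at most 36.4 FPKM. The part of tissue makeup in the values below was not tested.

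**Figure D1:**
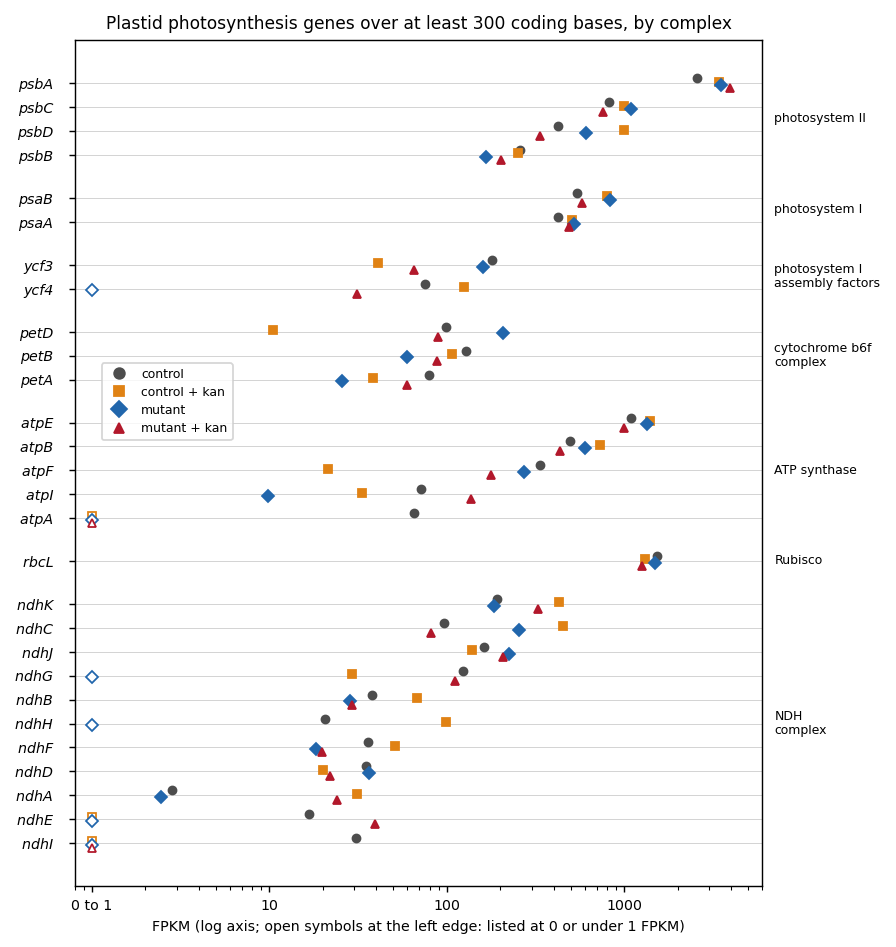
FPKM (log axis) of the chloroplast photosynthesis genes with at least 300 coding bases in the 4 libraries, 1 symbol per library, grouped by complex; ndhB is drawn once, and open symbols at the left edge are values of 0 or under 1 FPKM. The symbols of psbA, rbcL, psaA and atpE lie close together, while those of atpA, atpI, petD and several ndh genes span the axis.

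Photosystem II splits water, and its core is built on the D1 and D2 proteins, encoded by psbA and psbD, and on the inner antenna proteins CP47 and CP43, encoded by psbB and psbC. In the library labelled control psbA stood at 2573 FPKM, with 3429 in control + kan, 3491 in mutant and 3937 in mutant + kan. It was the highest of the 44 genes in every library and made up 17.9%, 18.6%, 23.6% and 25.0% of their summed FPKM. Its highest library was 1.53 times its lowest. Against the library labelled control, psbA was 1.33-fold (interval 1.26 to 1.41) in control + kan and 1.36-fold (1.29 to 1.43) in mutant. With libraries scaled by upper quartile both directions turned, with log2 differences of −0.33 and −0.57 in place of 0.41 and 0.44.

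The gene psbD had 424 FPKM in the library labelled control, 1001 in control + kan, 608 in mutant and 335 in mutant + kan. Control + kan stood above the other 3 libraries and mutant + kan below them. The fold was 2.36 (2.09 to 2.67) in control + kan against control, and in mutant + kan against control + kan it was 0.335 (0.291 to 0.383). The former fell under 2-fold with libraries scaled by upper quartile (log2 difference 0.50 in place of 1.24) or by the summed FPKM of the 44 genes (0.88). Of the 9 genes whose mean reached 200 estimated reads, a limit chosen after the values were seen, psbD was the only one whose highest library was at least 2 times its lowest, by 2.99. Scaled by upper quartile it was at 2.05, with psbB at 3.12 and rbcL at 2.08. In the library labelled mutant it was 1.43-fold (1.26 to 1.64) of control, which turned to a log2 difference of −0.49 under upper quartile scaling, and in mutant + kan against mutant 0.551-fold (0.475 to 0.637).

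Its neighbour psbC, which overlaps it by the 53 bases shown above, did not follow it. It was listed at 816, 996, 1090 and 762 FPKM, and its highest library was 1.43 times its lowest. The ratio of psbC to psbD was 1.93 (1.69 to 2.20) in the library labelled control, 0.995 (0.930 to 1.06) in control + kan, 1.79 (1.65 to 1.95) in mutant and 2.27 (1.97 to 2.63) in mutant + kan. Control + kan was thus the only library in which psbD reached the level of psbC, and its interval did not overlap those of the other 3. The table lists both genes at 1 shared locus, between which the authors' software divides reads, and the part of that division in the ratio was not tested.

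The gene psbB had 259, 252, 167 and 202 FPKM, and its highest library was 1.55 times its lowest. With kanamycin it stood at 0.975 (0.846 to 1.12) in control + kan against control and 1.21 (1.01 to 1.44) in mutant + kan against mutant. Set against psbB as another core gene, psbD was 1.64 (1.40 to 1.92) in the library labelled control, 3.97 (3.60 to 4.38) in control + kan, 3.64 (3.19 to 4.16) in mutant and 1.66 (1.38 to 1.996) in mutant + kan.

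The other 10 photosystem II genes encode small membrane subunits and are all under 300 coding bases. Only psbK stayed within 1.49-fold over the libraries, at 225, 161, 167 and 151 FPKM. The level of psbM was 786, 1342, 975 and 3467 FPKM. Both subunits of cytochrome b559 were low in control + kan: psbE was at 282, 27.7, 135 and 145 FPKM, and psbF at 207, 0, 136 and 105. Next to them psbJ was at 173, 120, 810 and 17.9 FPKM, and psbL was listed at 0 in all 4 libraries. On its own strand opposite the psbB unit, psbN had 491, 123, 203 and 58.6 FPKM. The gene psbH, in the psbB unit, was at 422, 244, 58.2 and 9.36 FPKM, lower in both libraries labelled mutant. The genes psbI (366, 1126, 0 and 0 FPKM) and psbT (253, 1372, 0 and 0) were listed at 0 in both libraries labelled mutant. At this length such zeros do not show that a transcript was absent.

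Photosystem I passes electrons to ferredoxin, and its reaction centre is a pair of large proteins encoded by psaA and psaB in 1 transcription unit. The gene psaA was listed at 425, 506, 519 and 486 FPKM, and psaB at 544, 799, 826 and 576 FPKM. Neither reached 2-fold between any libraries: the highest library was 1.22 times the lowest for psaA and 1.52 times for psaB. The ratio of psaB to psaA was 1.28 (1.16 to 1.41) in the library labelled control and 1.18 (1.08 to 1.2997) in mutant + kan, and higher, at 1.58 (1.49 to 1.68) and 1.59 (1.49 to 1.70), in control + kan and mutant. The intervals of the former pair of libraries did not overlap those of the latter.

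The small genes of photosystem I varied more. The level of psaJ was 403, 1469, 291 and 855 FPKM, high in both libraries from kanamycin medium. The gene psaC, which encodes the iron-sulfur protein that docks ferredoxin, was at 76.0, 24.3, 0 and 19.2 FPKM, and psaI at 273, 0, 0 and 0. The assembly factor gene ycf3 had 180, 40.8, 160 and 65.1 FPKM, and both libraries from kanamycin medium were the lower ones. Its fold was 0.227 (0.129 to 0.385) in control + kan against control and 0.406 (0.224 to 0.698) in mutant + kan against mutant, the latter a log2 difference of −1.29, and of −0.48 under upper quartile scaling. The other factor gene, ycf4, was at 74.9 and 125 FPKM in control and control + kan, 0 in mutant and 31.2 in mutant + kan.

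**Figure D2:**
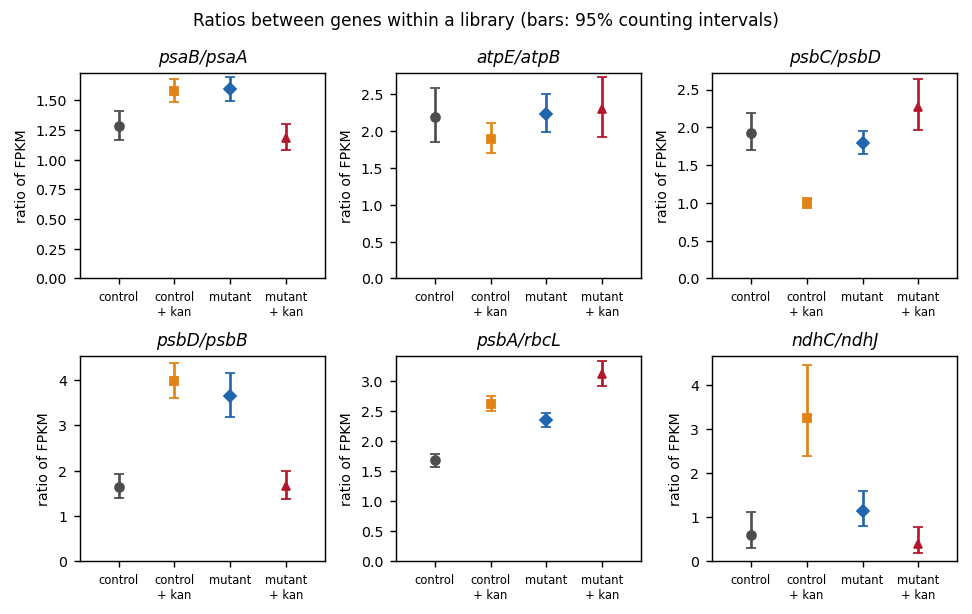
Ratio of the FPKM of one gene to that of another within each library for 6 pairs, with 95% counting intervals as bars. The psbC to psbD ratio falls to 0.995 in control + kan, atpE to atpB stays between 1.90 and 2.29, and psbA to rbcL runs from 1.68 in control to 3.13 in mutant + kan.

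Rubisco fixes CO2, and its large subunit is encoded by rbcL. Its level was 1530 FPKM in the library labelled control, 1307 in control + kan, 1480 in mutant and 1260 in mutant + kan. Both libraries from kanamycin medium were the lower ones, by a small margin: 0.854-fold (0.803 to 0.908) in control + kan against control and 0.851-fold (0.796 to 0.909) in mutant + kan against mutant. The latter turned to a log2 difference of 0.58 under upper quartile scaling, where the highest library of rbcL was 2.08 times its lowest. Between lines on the same medium rbcL was 0.967-fold (0.910 to 1.03) without kanamycin and 0.964-fold (0.902 to 1.03) with it. The ratio of psbA to rbcL was 1.68 (1.57 to 1.80), 2.62 (2.50 to 2.75), 2.36 (2.25 to 2.48) and 3.13 (2.93 to 3.34), so it was lowest in the library labelled control, highest in mutant + kan, and no pair of intervals overlapped.

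The chloroplast ATP synthase makes ATP from the proton gradient, and its plastid genes lie in 2 transcription units, atpB-atpE and atpI-atpH-atpF-atpA. The units differed in how far their genes varied. The catalytic subunit gene atpB was at 497, 733, 604 and 437 FPKM, and atpE, for the inhibitory epsilon subunit, at 1090, 1391, 1348 and 1002 FPKM. Both were highest in control + kan and lowest in mutant + kan, by 1.68-fold and 1.39-fold. Under upper quartile scaling both were lower in control + kan than in control, with log2 differences of −0.18 and −0.39. Both were then also lower in mutant than in control, at −0.73 and −0.70. In mutant + kan they were above mutant, at 0.34 and 0.38, so the order as listed did not hold. Their ratio, atpE to atpB, was 2.19 (1.85 to 2.59), 1.90 (1.71 to 2.10), 2.23 (1.98 to 2.51) and 2.29 (1.92 to 2.74), with overlapping intervals throughout.

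In the other unit atpF, for a subunit of the stalk, had 334 FPKM in the library labelled control, 21.4 in control + kan, 270 in mutant and 178 in mutant + kan. Control + kan was far below the other 3 libraries. The fold was 0.0640 (0.0330 to 0.114) in control + kan against control, from about 105 and 13 estimated reads, while in mutant against control it was 0.809 (0.623 to 1.05). The ring subunit gene atpH, which is under 300 coding bases, showed a like order with 391, 57.7, 344 and 287 FPKM. At the head of the unit atpI, for the membrane subunit a, was at 71.2, 33.2, 9.78 and 138 FPKM, with the library labelled mutant lowest and mutant + kan highest. Its fold was 14.1 (6.74 to 34.0) in mutant + kan against mutant and 0.466 (0.278 to 0.778) in control + kan against control. At the end of the unit atpA had 65.0 FPKM in the library labelled control, 0.0430 in mutant and 0 in both others. The table lists atpA, atpF and atpH at 1 shared locus with 3 rows, and the part of this in their values was not tested.

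**Figure D3:**
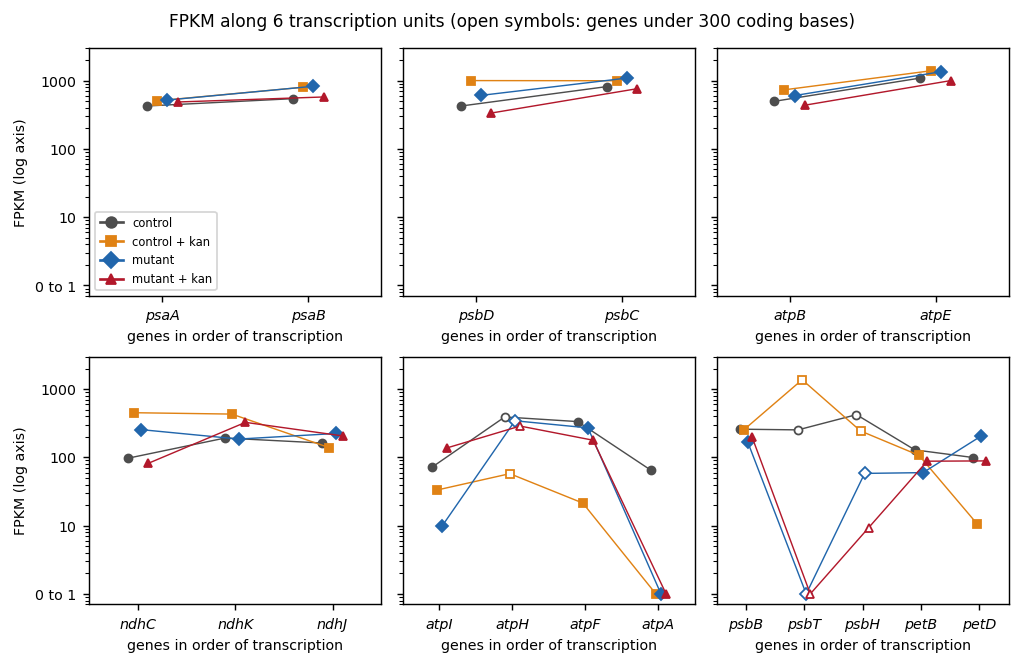
FPKM (log axis, values of 0 to 1 at the lower edge) of the genes of 6 transcription units in the order of transcription, 1 line per library; open symbols are genes under 300 coding bases. Lines run close together for psaA-psaB and atpB-atpE, psbD in control + kan stands out in its unit, and the lines cross in the other 3 units, with atpF in control + kan at 21.4 FPKM against 178 to 334 in the other libraries.

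The cytochrome b6f complex links the photosystems. Its cytochrome f gene petA had 78.8 FPKM in the library labelled control, 38.2 in control + kan, 25.7 in mutant and 59.8 in mutant + kan. It was lower in the library labelled mutant than in control, by a fold of 0.326 (0.198 to 0.525), and in mutant + kan it was 2.33-fold (1.40 to 3.93) of mutant. The cytochrome b6 gene petB was at 129, 107, 59.8 and 87.9 FPKM, also lowest in the library labelled mutant, at 0.465-fold (0.297 to 0.721) of control. Downstream of petB in the psbB unit, petD, for subunit IV, was at 99.4, 10.5, 207 and 88.8 FPKM. There the library labelled mutant was the highest (log2 difference against control 1.05, and 0.05 under upper quartile scaling) and control + kan, with about 5 estimated reads, the lowest. The small subunit gene petG was at 22.2, 174, 0 and 75.9 FPKM.

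The NDH complex returns electrons from ferredoxin to plastoquinone, in a cycle around photosystem I, and is much scarcer than the photosystems. Among its plastid genes the mean over the libraries ran from 7.70 to 283 FPKM. The unit ndhC-ndhK-ndhJ held the highest 3. At its head ndhC had 96.9 FPKM in the library labelled control, 451 in control + kan, 255 in mutant and 81.6 in mutant + kan. From the highest down the libraries were in the order control + kan, mutant, control and mutant + kan. That was also the order of psbD, atpB and atpE. For ndhC the fold was 4.65 (2.67 to 8.75) in control + kan against control and 0.320 (0.152 to 0.615) in mutant + kan against mutant. The latter was a log2 difference of −1.63, and of −0.83 under upper quartile scaling. The next gene, ndhK, was at 192, 430, 185 and 326 FPKM, with both libraries from kanamycin medium above both others, by 2.24-fold (1.76 to 2.89) in the control line and 1.76-fold (1.37 to 2.26) in the mutant line. The former was a log2 difference of 1.16, and of 0.42 under upper quartile scaling. The last, ndhJ, was at 162, 139, 224 and 206 FPKM, and its highest library was 1.61 times its lowest. Within this unit the ratio of ndhC to ndhJ ran from 0.396 (0.186 to 0.772) in mutant + kan to 3.24 (2.38 to 4.45) in control + kan.

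The genes ndhB and ndhF lie outside the large ndh unit. The 2 ndhB copies are identical over their 1539 coding bases, so reads cannot be assigned to one of them, and the table gives both the same values: 37.8, 68.2, 28.4 and 29.2 FPKM. For ndhF the values were 36.1, 51.1, 18.4 and 19.8 FPKM. Both genes were highest in control + kan, and mutant + kan against control + kan was 0.428-fold (0.284 to 0.627) for ndhB and 0.387-fold (0.261 to 0.559) for ndhF. These were log2 differences of −1.20 and −1.33, and of −0.67 and −0.80 under upper quartile scaling.

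The large unit runs ndhH-ndhA-ndhI-ndhG-ndhE-psaC-ndhD, and the table places all of it in 1 merged locus with 14 rows. The last gene, ndhD, was the steadiest, at 35.1, 20.1, 36.6 and 21.9 FPKM. The gene ndhA was higher in both libraries from kanamycin medium, at 2.83, 31.02, 2.46 and 24.1 FPKM, from about 2, 46, 3 and 18 estimated reads. Its neighbour ndhH was at 20.5, 98.7 and 0 FPKM in the first 3 libraries, and its value in mutant + kan was left out because the table gives it 2 differing values. The other 3 ndh genes of the unit also had zeros: ndhG was at 124, 29.1, 0 and 111 FPKM, ndhE at 16.7, 0, 0 and 39.3, and ndhI at 30.8, 0, 0 and 0. The gene psaC, between ndhE and ndhD, was listed at 0 in the library labelled mutant. An assembled entry labelled NDHA without a locus identifier, which is not one of the 44 genes, was listed in the same merged locus at 7050, 9065, 8216 and 6401 FPKM. Its part in the values of its neighbours was not tested.

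How far a gene varied over the libraries went with the number of its reads. Of the 9 genes whose mean reached 200 estimated reads (psbA, rbcL, psaB, psbC, psaA, atpB, psbD, psbB and atpE), 1 was at least 2-fold apart between its highest and lowest library. It was 3 with libraries scaled by upper quartile, and with another length correction in the read estimate 10 genes reached the limit, ndhK among them, and 2 were that far apart. Of the 20 other genes with at least 300 coding bases, 18 were that far apart or listed at 0 in some library, 6 of them at 0. Long genes that share a table locus with other rows were at least 2-fold apart or at 0 in 12 of 17 cases, and those alone at their locus in 7 of 12. Both ndhB copies, which have the same values, are counted among the 20 and among the 12. The like share over all genes was not computed, so these counts do not set the chloroplast genes apart from the rest. Depth itself also differed, with 1 read per kilobase worth 1.13, 0.596, 0.702 and 1.17 FPKM in the 4 libraries. A read was worth least in control + kan and mutant, the deeper libraries by this estimate, which had the fewest genes with any signal. These numbered 11067 and 8957, against 15055 in control and 13169 in mutant + kan. The part of depth in the spread was not tested.

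**Figure D4:**
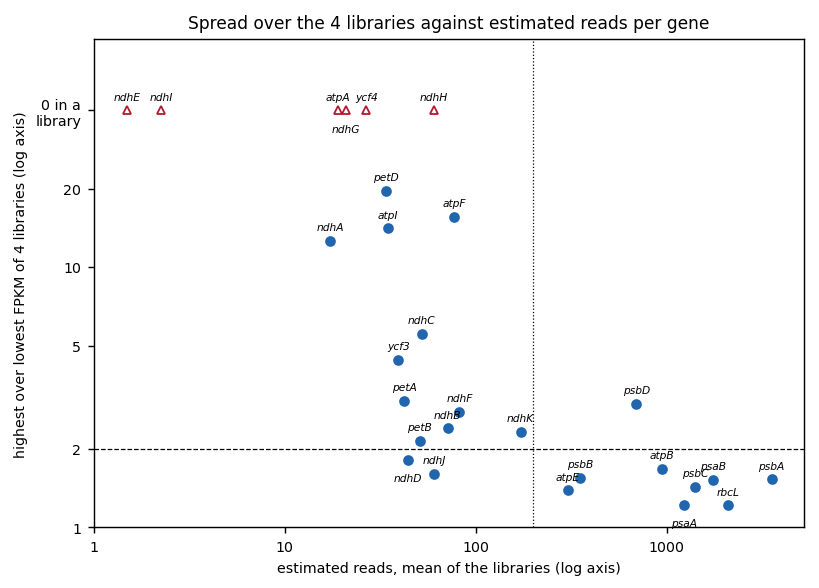
Highest over lowest FPKM of the 4 libraries (log axis) against the mean number of estimated reads (log axis) for each gene with at least 300 coding bases; triangles at the top are genes listed at 0 in a library, the dashed line is 2-fold and the dotted line 200 reads. Right of the dotted line psbD alone lies above the dashed line, at 2.99.

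Differences between libraries were then counted on the scale of log2(FPKM + 1), which understates the differences of low genes, as at least 2-fold higher or lower where the mean over the libraries was 5 FPKM or more. All members but psbL passed that limit. The genes psaI, atpA and ndhI passed it only through the library labelled control. That they count as lower in control + kan and in mutant against control was thus set by the filter. The shares of all genes come from the same filter. In control + kan against control 9 of 43 genes were higher and 15 lower, beside 26.6% and 30.9% of all genes, and their median difference was −0.22 against −0.01 for all genes. That median became 0.27 without genes at 0 in either library, 0.25 without genes under 300 bases and −0.96 under upper quartile scaling. Lower were 4 of 6 ATP synthase genes (atpA, atpF, atpH and atpI) and none was higher, while 4 of 12 NDH genes were higher and 3 lower. Of the other 38 chloroplast protein genes with such a mean, which serve mostly transcription and translation, 7 were higher and 12 lower.

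In mutant against control 3 of 43 genes were higher, beside 23.7% of all genes, and 17 were lower, beside 37.4%. The median was −0.43 against −0.29. The higher ones were ndhC, petD and psbJ. Among the lower ones were psaI, atpA and ndhI, which passed the mean limit through the library labelled control alone. Of the 17 lower ones 10 were listed at 0 in the library labelled mutant, where fewest genes of the table had any signal, and without genes at 0 in either library 7 were lower. All 4 cytochrome b6f genes were past the limit, petD upward and petA, petB and petG downward. Genes of the mitochondrial genome were lower in this comparison in 28 of 42 cases with a median of −3.17.

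With kanamycin in the medium of both lines, mutant + kan against control + kan, 9 of 42 genes were higher and 12 lower, with ndhH left out for want of a value, beside 29.2% and 30.4% of all genes, with a median of −0.30 against 0.00. The ATP synthase genes atpF, atpH and atpI were the higher ones of their complex, at 3.00, 2.30 and 2.02 on the log2 scale. In photosystem I none of the 5 genes was past the limit, but psaI was listed at 0 FPKM in both libraries. Photosystem II had 6 of 13 genes lower, among them psbD at −1.58, and the other 5 were short genes. Higher were psbM, psbE and psbF, also short, at 1.37, 2.34 and 6.72 on the log2 scale, the last from 0 FPKM in control + kan. Of 7 genes for sigma factors and the phage-type polymerases of the plastid, 5 were higher and none lower here, and 4 were lower and 1 higher in control + kan against control, which shares the library control + kan. Among them SIG2 was at 39.7, 14.6, 20.04 and 60.6 FPKM.

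In mutant + kan against mutant 10 of 42 genes were higher and 6 lower, beside 35.9% and 27% of all genes, with a median of 0.00 against 0.09. Among long genes the higher ones were atpI, ycf4, petA, ndhE, ndhG and ndhA and the lower ones ycf3, petD and ndhC. The 4 comparisons share libraries, so a low or high value in 1 library moves a pair of them. The share of chloroplast photosynthesis genes past the limit was under that of all genes in 6 of these 8 counts, without a test of the difference, and lowest for the higher genes of mutant against control, 6.98%. The exceptions were the lower genes of control + kan against control, 34.9% of them, and of mutant against control, 39.5%, which were near the shares of all genes given above.

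**Figure D5:**
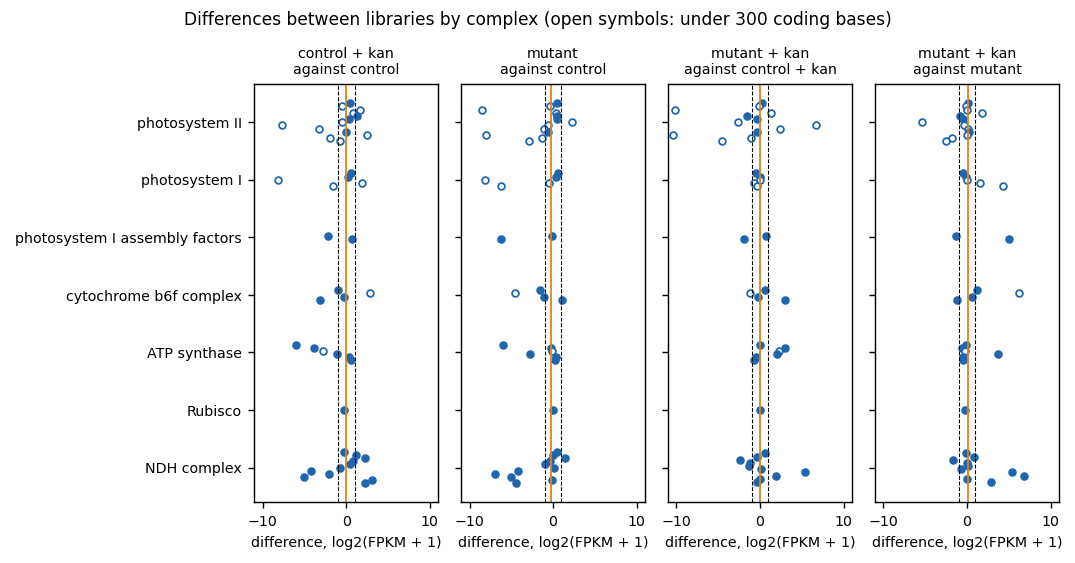
Difference in log2(FPKM + 1) of each gene in the 4 comparisons, by complex, with genes under 300 coding bases as open symbols, the median of all genes as an orange line and 2-fold limits as dashed lines; ndhB is drawn once. Photosystem I and rbcL stay inside the limits in mutant + kan against control + kan, where psaI is at 0 FPKM in both libraries. The farthest points, beyond 7 on the log2 scale, are short genes with a value of 0.

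Nuclear genes for subunits of the same complexes were taken as lists beside the chloroplast genes. All 12 nuclear photosystem I genes were within 2-fold in control + kan against control and in mutant + kan against control + kan, with 1 lower in mutant against control and 2 higher in mutant + kan against mutant. The 11 nuclear photosystem II genes that reached a mean of 5 FPKM, the 2 of the cytochrome b6f complex and the 4 Rubisco small subunit genes stayed within 2-fold in all 4 comparisons. Counts of nuclear genes are of FPKM as listed and were not recomputed under other scalings. Upper quartile scaling moved the median of all genes in mutant against control from −0.29 to −1.35. PSBO1, for a protein of the water-splitting site, was at 1584, 1068, 1550 and 1397 FPKM, and RBCS1A, the main small subunit gene, at 8813, 6472, 11376 and 7282 FPKM. ATPC1, for the gamma subunit of the ATP synthase, was at 214, 402, 516 and 356 FPKM, past 2-fold in mutant against control at 1.27 on the log2 scale. These genes were abundant. Of the 9 chloroplast genes with a mean of at least 200 estimated reads, all but psbD also stayed within 2-fold as listed. Of the less abundant nuclear NDH genes 2 of 17 were higher and 7 lower in control + kan against control, with 0 and 10 in mutant against control, 6 and 5 in mutant + kan against control + kan, and 10 and 3 in mutant + kan against mutant. In the same order the shares of all genes were 26.6% and 30.9%, 23.7% and 37.4%, 29.2% and 30.4%, and 35.9% and 27%. PnsB1, of an NDH subcomplex, was at 103, 154, 14.0 and 54.1 FPKM.

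Copies of chloroplast DNA elsewhere in the genome could share reads with some of these genes. Of the 44, 5 had a stretch of at least 100 bases with at least 95% identity outside the chloroplast genome: psbA and rbcL on chromosome 2 and in the mitochondrial genome, the 2 ndhB copies on chromosome 2, and atpI on chromosome 3. For atpI such stretches covered 100% of the coding sequence, for psbA 47.6%, for rbcL 39.8% and for ndhB 10.4%. The values of atpI in particular are uncertain for this reason, and how the authors' alignment treated such reads was not tested.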

How the data were processed

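After clipping, reads were mapped by the authors with TopHat2 2.0.5 (build TAIR10), transcripts were built with Cufflinks 2.0.2, and Cuffdiff 1.3.0 gave abundances; the versions are those of the submitters' processing notes. The values deposited by the authors are FPKM per gene and library, under a header that says rpkm. The same table holds the authors' fold changes, p-values and q-values, which were not used. The study lists mapped reads per library under codes that the labels do not match to conditions, and these totals were not used in the estimates. Reads per gene were estimated from the steps of low FPKM values of 5451 intronless nuclear genes, where 79.4% to 90.7% of values lay within 0.2 of a whole read after 199 bases were subtracted from the length. The steps rested on 322, 43, 27 and 223 values in control, control + kan, mutant and mutant + kan. With 35 bases subtracted the share was 79.9%, 88.4%, 73.1% and 81.1%, so the values do not settle this length. By the study's mapped totals a read per kilobase would be worth less than the steps found in control, mutant and mutant + kan, however the codes are matched. The search for steps did not reach down to the lowest such worth. The reason for this difference was not tested, and it bears on every estimated read number and interval. The precision of a value follows from these estimated reads.

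Samples were grouped by line and medium as labelled. Differences were computed as log2(FPKM + 1) and called at 2-fold for a mean of at least 5 FPKM, with no test, since each condition has 1 library. Of the 44 genes, 20 have the same coordinates in the table and in RefSeq and 41 lie within their table locus. Near-identical copies were sought with BLAST 2.17.0. The step estimate and the 2-fold limit were tested on simulated data that held counting error alone. That does not show how either behaves with the other errors of these libraries. All 44 genes are named, and values of the 15 short ones were added after they were seen. From each other list the rule allowed up to 4 genes with the highest mean and those past 2-fold in at least 3 of 4 comparisons with a mean of at least 20 FPKM. Members, lists and rules were chosen with earlier results of these data known. Alternatives were other pseudocounts, filters and scalings, and leaving out genes at 0, short genes or the second ndhB copy. Computations used Python 3.11.15, numpy 2.4.6, pandas 2.3.3, scipy 1.17.1 and matplotlib 3.10.9.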

Additional observations from a re-analysis of the deposited data

Results flagged for a closer look

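In 3 genes with signal in all 4 libraries, the difference went at least 2-fold one way in one line or medium and at least 2-fold the other way in the other. The differences between these effects were not tested, since each condition has 1 library. With kanamycin, ndhC differed by 2.21 on the log2(FPKM + 1) scale in the control line and by −1.63 in the mutant line, while atpI differed by −1.08 and 3.69 and petA by −1.03 and 1.19 in that order. Between the lines, mutant against control, ndhC differed by 1.39 without kanamycin and by −2.45 with it, and atpI by −2.75 and 2.02. With libraries scaled by upper quartile the differences of ndhC were 0.38 in mutant against control and −0.83 in mutant + kan against mutant, under 2-fold, and petA was at −0.96 in control + kan against control when scaled by summed nuclear FPKM. Lowest estimated reads behind these values were 8 for atpI, 11 for ndhC and 28 for petA.

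Assembled entries without a locus identifier, which no comparison uses, gave signal in all 4 libraries at or near the chloroplast photosynthesis genes. Such an entry from 54 to 159 bases before the start codon of psaA had 729, 331, 2158 and 554 FPKM in control, control + kan, mutant and mutant + kan, the lowest being 331. One from 231 to 482 bases before that of atpB had 1302, 1438, 1939 and 1238 FPKM, and one from 238 to 665 bases before that of ndhF 132, 213, 91.4 and 182. From 123 to 177 bases before the start codon of rbcL an entry only 55 bases wide was listed at 108219, 91462, 352960 and 75937 FPKM. For so short an entry the unit has no stable meaning. In the merged locus of the psbB unit an entry labelled CLPP1 had 83.8, 252, 89.0 and 222 FPKM. Of those in the merged ndh locus, that labelled YCF5 had 813, 1318, 1004 and 966 FPKM and that labelled NDHA at least 6401 FPKM.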

How the results depend on the processing

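Counts and medians of the 44 genes were recomputed under 132 pairs of value and alternative, of which 116 stayed within 1.5 times for a count or within the interval of the median. Among those 116 the median of control + kan against control, −0.22, turned to 0.27 without genes at 0 and to 0.25 without genes under 300 bases, and it was −0.96, with 6 higher and 20 lower genes, under upper quartile scaling. Scaling by upper quartile moved the median of all genes to −0.82 in control + kan against control, −1.35 in mutant against control, 0.40 in mutant + kan against control + kan and 0.95 in mutant + kan against mutant, so small differences are relative to the scaling. Under it, mutant against control had 1 higher and 29 lower genes with a median of −1.43, mutant + kan against control + kan 7 lower with a median of 0.16, and mutant + kan against mutant 2 lower with a median of 0.62. Without genes listed at 0, mutant against control had 7 lower and mutant + kan against mutant 5 higher. Without genes under 300 bases the counts of higher and lower fell to 5 and 9 in control + kan against control, 5 and 6 in mutant + kan against control + kan and 6 and 3 in mutant + kan against mutant, and to 9 lower in mutant against control, with fewer genes counted. Of 1044 recomputed differences of single genes 498 moved beyond their interval or, for genes without an interval, by any amount. Of the differences, 25 fell under 2-fold, and 23 rose past it under upper quartile scaling. None that was at least 2-fold as first computed changed sign, while 57 smaller ones did, 41 of them under upper quartile scaling. With 35 bases subtracted from the length, an alternative chosen after the data were seen as was the spread of the 9 genes under other scalings, mean estimated reads of those 9 genes were 0.950 to 1.60 times those given.

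No paired analysis was possible because each condition has 1 library and the labels give no replicate numbers. Depth limits low genes: 3 reads were worth 0.870 to 1.71 FPKM for psaA but 10.9 to 21.4 FPKM for ndhC.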
